A study of Mus musculus with 8 samples.

Results

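The metallothionein genes Mt1 and Mt2 and the zinc regulators Mtf1 and Slc30a1 were followed in T cells of WT and SDHA-KO spleens, as 4 of the 20170 genes in the count table. The 4 genes were proposed as members of the same pathway with the difference between stimulated SDHA-KO and WT cells in view, seen in an earlier look at these data. The stimulated contrast between genotypes is therefore given for the 4 genes as a description with no test. Each gene was read as its unique molecular identifiers (UMIs, each a tagged mRNA molecule), summed per library and class of cell, and as the share of cells with at least 1 UMI.

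SDHA is the catalytic flavoprotein subunit of mitochondrial complex II. SDHA-KO mice carried Sdha fl/fl alleles and a CD4-Cre transgene, which acts from the thymic stage at which T cells carry both CD4 and CD8 and thereby reaches both lineages, whereas γδ T cells mostly develop outside that stage. The labels call the control genotype WT and do not say whether it carried the floxed alleles. Mice in the study were 8 to 12 weeks old. Pan T cells were enriched from spleen and either kept in medium without antibody (unstimulated) or cultured for 48 h with soluble anti-CD3 at 5 µg/mL and anti-CD28 at 2.5 µg/mL (stimulated), and dead cells were removed from all 4 groups before 3′ single-cell capture. Each group had 2 libraries, and since the labels do not say that these came from separate mice, the p-values measure only the spread between libraries, which may be technical.

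Metallothioneins are small cysteine-rich proteins that bind zinc and copper. MTF-1, the product of Mtf1, is a zinc-sensing transcription factor that binds metal response elements in DNA and induces Mt1, Mt2 and Slc30a1 when free zinc rises. Slc30a1 encodes ZnT1, the zinc exporter of the plasma membrane, while ZIP proteins of the Slc39a family bring zinc into the cytosol. T cells take up zinc on activation, and metallothionein genes also respond to copper, to glucocorticoid hormone and to oxidative stress.

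On GRCm38 (GENCODE vM21), Mt1 (ENSMUSG00000031765) lies at chr8:94179082-94180327 and Mt2 (ENSMUSG00000031762) at chr8:94172664-94173568, both on the plus strand with 3 exons and 5513 bases apart. Mtf1 (ENSMUSG00000028890) lies at chr4:124802104-124849800 with 11 exons and Slc30a1 (ENSMUSG00000037434) at chr1:191906767-191913247 with 2 exons, both on the plus strand. The Mt1 and Mt2 transcripts, of 549 and 511 bases, share no run longer than 20 bases, and Mt1 and Mt3 share none longer than 27. The 250 bases before the RefSeq start (GRCm38.p6) are shown for the 3 genes that MTF-1 is known to induce. That start differs from the GENCODE start by some bases. Capitals mark matches to the metal response element core written as TGCACNC or TGCGCNC, 7 letters that do not overlap each other, searched on both strands.

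Mt1, plus strand, chr8:94178839-94179088: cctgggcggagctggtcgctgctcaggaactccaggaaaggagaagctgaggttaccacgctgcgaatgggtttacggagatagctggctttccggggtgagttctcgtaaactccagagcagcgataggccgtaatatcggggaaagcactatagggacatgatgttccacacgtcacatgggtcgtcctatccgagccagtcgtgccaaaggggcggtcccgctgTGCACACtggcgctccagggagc
Mt2, plus strand, chr8:94172368-94172617: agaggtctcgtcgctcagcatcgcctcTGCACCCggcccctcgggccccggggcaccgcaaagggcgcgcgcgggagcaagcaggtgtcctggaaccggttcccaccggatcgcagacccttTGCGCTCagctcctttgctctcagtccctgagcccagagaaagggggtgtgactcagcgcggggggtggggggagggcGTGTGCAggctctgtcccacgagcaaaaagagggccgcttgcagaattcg
Slc30a1, plus strand, chr1:191906531-191906780: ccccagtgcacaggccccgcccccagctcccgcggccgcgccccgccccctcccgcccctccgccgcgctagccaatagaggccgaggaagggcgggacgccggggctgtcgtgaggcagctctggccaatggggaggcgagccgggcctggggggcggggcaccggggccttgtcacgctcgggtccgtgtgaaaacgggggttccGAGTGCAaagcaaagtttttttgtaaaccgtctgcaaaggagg

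Further matches lay just past the annotated RefSeq start. Where transcription began in these cells was not measured, so which matches lie before or after the start depends on the annotation. Mt1 held 2 of them in the 25 bases at chr8:94179091-94179115, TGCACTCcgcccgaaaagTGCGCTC. Mt2 held GTGCGCA at chr8:94172622-94172628 and Slc30a1 held GAGCGCA at chr1:191906811-191906817, both matches to the minus strand. In the 300-base window from 250 before to 50 after the start, the matches numbered 4 for Mt2, 3 for Mt1, 2 for Slc30a1 and 0 for Mtf1. Of 32851 RefSeq windows of the same length, 25.7% held at least 1 match, 7.11% at least 2, 1.97% at least 3 and 0.517% at least 4. A match is a description of the letters and was not tested as a binding site.

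The table held 12846 cells, 1395 to 1801 per library, with 10947009 to 14883158 UMIs in each unstimulated library and 46201110 to 51398728 in each stimulated one. Of 12823 distinct cell barcodes, 23 occurred in more than 1 library. Cells are called CD4 or CD8, and by Subtype (Tcm for central memory, Tem for effector memory), as the authors annotated their clusters. All 7 T cell markers were detected in every library and class, while 7 myeloid markers summed to at most 6.75 plain CPM and 3 erythroid markers to at most 3.65 plain CPM after stimulation. Sdha, the targeted gene, was lower in every SDHA-KO library than in every WT library of the same state. In stimulated CD4 cells Sdha stood at 74.0 and 73.1 CPM in WT and 26.5 and 26.4 in SDHA-KO, and in stimulated CD8 cells at 76.2 and 74.9 against 53.3 and 50.5. The position of the 3′ read relative to the deleted part is not given, so remaining Sdha counts do not measure intact transcript. Stimulated WT cells also stood apart in mitochondrial content: 31.8% and 35.5% of them had under 10% mitochondrial UMIs, against 80.1% and 83.9% of stimulated SDHA-KO cells, and their median depth in the 2 classes was 13152 to 14753 UMIs against 23669 to 30662. CPM (counts per 1e6) here means a gene's UMIs relative to library sizes scaled by TMM, the trimmed mean of M-values, unless called plain CPM, which is relative to all UMIs of the same cells.

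At rest both metallothionein genes were close to silent. Unstimulated WT CD4 cells held 0 and 1 Mt1 UMIs in the 2 libraries, among 1884 cells, and unstimulated SDHA-KO CD4 cells 9 and 5 among 2431 cells. That difference of 14 against 1 UMIs is 9.27-fold per UMI counted, with an exact Poisson interval of 1.41 to 392 that covers counting error only. In edgeR's quasi-likelihood test across libraries it was not called (adjusted p = 0.684). CD8 cells held 0 and 0 Mt1 UMIs in WT, where 0 of 1019 cells allows a share of up to 0.294% of cells with a UMI, and 2 and 0 in SDHA-KO. Of the 14 SDHA-KO UMIs, 9 lay in replicate 1, a library that also stood apart in markers of other cells: its CD4 cells held 38.9 plain CPM of the 7 myeloid markers, against at most 3.84 in the other 7 unstimulated sums of library and class, with 140 UMIs of S100a8 and 229 of S100a9 against 0 and 0 in SDHA-KO replicate 2, and 486 UMIs of the B cell gene Igkc against 55. The part of those cells in the Mt1 counts was not tested. Mt2 had 1 UMI in WT and 3 in SDHA-KO CD4 cells, and 0 in CD8 cells of either genotype.

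The regulator and the exporter, by contrast, were both detected at rest. In unstimulated CD4 cells Mtf1 stood at 13.3 and 12.3 CPM in WT and 14.1 and 13.3 in SDHA-KO, which overlapped. In CD8 cells its WT libraries held 12 and 10.3 CPM and its SDHA-KO libraries 14.1 and 11.3, which also overlapped. Slc30a1 was at 8.18 and 7.04 CPM in WT and 6.52 and 6.89 in SDHA-KO CD4 cells. In CD8 cells the exporter was at 4.57 and 4.24 CPM in WT and 6.90 and 7.11 in SDHA-KO, so both SDHA-KO libraries were higher. These values rest on 16 and 19 against 23 and 24 UMIs. The share of all genes without overlap at rest was not computed, so nothing is read from the order. Mt2 in both classes and Mt1 in CD8 cells held at most 3 UMIs per genotype at rest, too few for a call in any direction. Mtf1 and Slc30a1 were not called between genotypes at rest at an adjusted p under 0.05. At that threshold edgeR called 1.10% of 14264 genes in CD4 cells and 0.947% of 13095 in CD8 cells. The nearest was Slc30a1 in CD8 cells, with a log2 fold change of 0.67 (SE 0.31, edgeR unadjusted p = 0.0529, adjusted p = 0.36). Counting all 4 genes, also those with too few UMIs, 0 had an unadjusted p under 0.05 in edgeR in either class. DESeq2 called 0, with 1 in CD4 and 0 in CD8 cells at an unadjusted p under 0.05.

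Stimulation of WT cells brought both metallothioneins up from that floor. In WT CD4 cells Mt1 reached 253 and 372 CPM and Mt2 42.7 and 71.1 CPM, from at most 0.160 CPM at rest. In WT CD8 cells Mt1 reached 274 and 563 CPM and Mt2 60.9 and 159 CPM, from 0 in both libraries. Every stimulated WT library was above every unstimulated one. Counted as UMIs, Mt1 in CD4 cells went from 1 to 18401, a 4756-fold ratio per UMI counted with an interval of 854 to 187881, and in CD8 cells it was at least 1566-fold higher, against a floor of 3 UMIs over the group. Mt2 rose 869-fold in CD4 cells (interval 156 to 34315) and was at least 412-fold higher in CD8 cells. No test is given for the pair, since the stimulated WT libraries also served in the contrast with which these genes were proposed. In no unstimulated WT library did either gene reach the minimum of the filter on low counts. Many genes moved with stimulation, since edgeR called 36.2% of genes higher and 30.1% lower in WT CD4 cells. The CD8 figures were 35.5% and 30.3%.

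Mtf1 and Slc30a1 moved little beside that, and in opposite directions in CD4 cells. Their tests use the same stimulated WT libraries, which also served in proposing the genes, so the p-values are not free of that choice. Mtf1 rose in WT CD4 cells from 12.8 ± 0.723 to 17.6 ± 0.0857 CPM (SD, n = 2 libraries), a log2 fold change of 0.46 (SE 0.143, edgeR adjusted p = 0.0144). In WT CD8 cells it rose from 11.1 ± 1.23 to 17.0 ± 0.502 CPM, by 0.62 on the log2 scale (SE 0.162, edgeR adjusted p = 0.00576). Both calls were lost in places: the CD4 call without WT unstimulated replicate 2 (adjusted p = 0.0932) or without either WT stimulated replicate (0.0557 and 0.0629) and in DESeq2 (0.0662), and the CD8 call without WT unstimulated replicate 2 (0.0845). Slc30a1 fell in WT CD4 cells from 7.61 ± 0.803 to 2.44 ± 0.0393 CPM, by 1.64 on the log2 scale (SE 0.217, edgeR adjusted p = 4.39e-05), and all 4 libraries kept to their side. In WT CD8 cells it went from 4.40 ± 0.234 to 3.24 ± 0.00750 CPM and was not called (log2 fold change −0.44, SE 0.282, edgeR adjusted p = 0.189), and the sign turned to 0.04 without composition normalization. In the WT libraries in which both metallothioneins were higher, Slc30a1 was thus lower in CD4 cells and not called in CD8 cells. The part of MTF-1 in either change was not tested.

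In SDHA-KO cells the same stimulation left the metallothioneins far lower in CD4 cells, with a smaller difference in CD8 cells. Mt1 stood at 37.6 and 14.98 CPM in stimulated SDHA-KO CD4 cells, or 26.3 ± 16.01 against 313 ± 84.4 in WT (SD, n = 2). Both SDHA-KO libraries were below both WT libraries, with a log2 ratio of means of −3.57 that ranged from −4.37 to −3.04 when each library was left out in turn. Mt2 stood at 11.7 and 7.49 CPM, or 9.57 ± 2.94 against 56.9 ± 20.1 in WT, a log2 ratio of −2.57 (range −2.91 to −2.14). Both genes were still above rest, since Mt1 held 1710 UMIs in stimulated and 14 in unstimulated SDHA-KO CD4 cells, a 41.6-fold ratio per UMI counted, and Mt2 635 against 3. In CD8 cells Mt1 stood at 274 and 183 CPM in SDHA-KO against 274 and 563 in WT, and Mt2 at 65.9 and 49.8 against 60.9 and 159. Mt2 overlapped between the CD8 genotypes. For Mt1 an overlap depended on the scaling, since SDHA-KO replicate 1 and WT replicate 1 were level in TMM-scaled CPM, while in plain CPM both SDHA-KO libraries, at 308 and 203, were below both WT libraries, at 323 and 648. In TMM-scaled CPM 38.5% of genes had both SDHA-KO libraries below both WT libraries in CD8 cells. The log2 ratios in CD8 cells were −0.87 for Mt1 and −0.93 for Mt2, and without WT replicate 2, the highest library for both genes, they were −0.28 and −0.09.

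**Figure D1:**
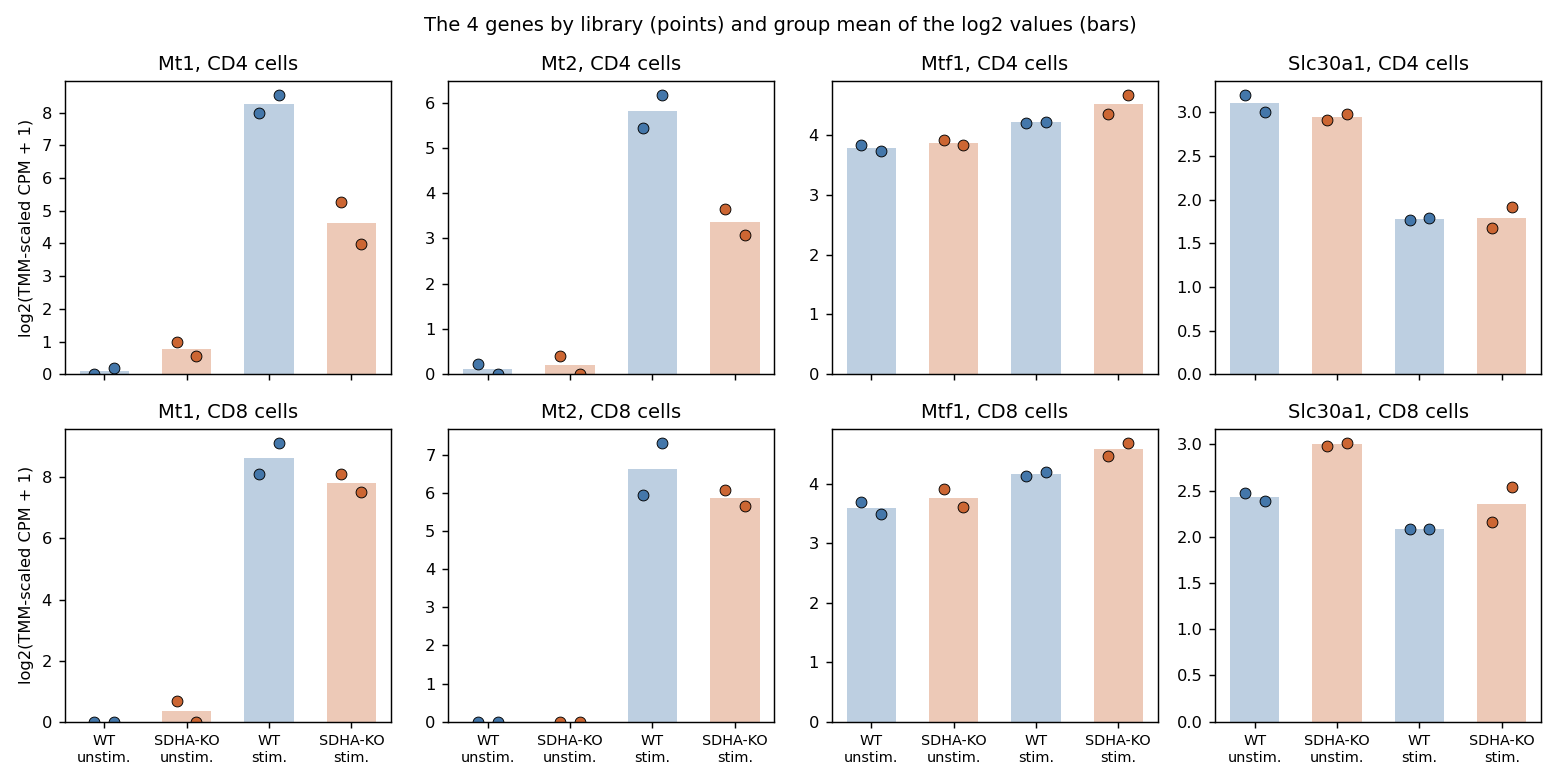
Level of each gene per library on a log2(TMM-scaled CPM + 1) axis that starts at 0, for CD4 cells (upper row) and CD8 cells (lower row) in 4 groups of 2 libraries. Points are libraries (blue WT, orange SDHA-KO) and bars are group means of the log2 values. Mt1 and Mt2 are near 0 at rest and high after stimulation, with SDHA-KO CD4 cells at 37.6 and 14.98 CPM of Mt1 between the 2 states of WT, and Slc30a1 in CD4 cells is lower after stimulation in both genotypes.

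Mtf1 was not lower in stimulated SDHA-KO cells. In stimulated CD4 cells Mtf1 was at 17.5 and 17.7 CPM in WT and 19.6 and 24.6 in SDHA-KO, a log2 ratio of 0.33. In stimulated CD8 cells Mtf1 was at 16.6 and 17.3 CPM in WT and 21.2 and 24.9 in SDHA-KO, a log2 ratio of 0.44. Both SDHA-KO libraries were higher than both WT libraries in each class, a pattern that 37.8% of all genes showed in CD4 cells and 38.8% in CD8 cells, so for Mtf1 it is close to the background. For Mt1 and Mt2 in CD4 cells the pattern with both SDHA-KO libraries lower was that of 36.9% of genes, and nothing is read from it because Mt1 was chosen on this contrast. Slc30a1 was equal within its spread in stimulated CD4 cells, at 2.41 and 2.47 CPM in WT and 2.18 and 2.76 in SDHA-KO. In stimulated CD8 cells it was at 3.24 and 3.23 CPM in WT and 3.48 and 4.83 in SDHA-KO, a log2 ratio of 0.36 that was 0.06 in cells with Cd8a or Cd8b1 UMIs and neither Cd4 nor Trdc UMIs.

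Mt1 was also read as the share of cells with a UMI. It was detected in 80.8% ± 6.33 of stimulated WT CD4 cells and 24.1% ± 10.9 of SDHA-KO CD4 cells (SD, n = 2), although the SDHA-KO cells were deeper. After every cell was thinned to 5000 UMIs and shallower cells were left out (18 and 20 WT CD4 cells, 74 and 86 SDHA-KO CD4 cells), the shares were 45.4% and 54.7% in WT and 12.1% and 5.59% in SDHA-KO. In CD8 cells, where 2 to 6 cells per library were left out, the thinned shares were 51.1% and 61.1% in WT and 37.1% and 21.8% in SDHA-KO. Thinned shares of both SDHA-KO libraries were lower than those of both WT libraries in each class. How many of all genes show such a pattern in thinned shares was not computed, so nothing is read from it. In unstimulated cells, with median depths of 7055 to 10446 UMIs, Mt1 was detected in at most 0.627% of cells in any library and class, and the share that free RNA gives in the stimulated libraries was not measured. For Mt2 the thinned shares were 12.6% and 20.5% in WT and 4.61% and 4.26% in SDHA-KO CD4 cells, and 19.98% and 26.92% against 16.6% and 10.0% in CD8 cells. Mtf1 was detected in 35.5% and 35.5% of WT and 36.5% and 45.8% of SDHA-KO CD4 cells, and the thinned means were 9.46% ± 1.10 and 11.4% ± 1.22.

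Within a library, Mt1 was very uneven over cells. The median CD4 cell held 2 and 3 Mt1 UMIs in the WT libraries and 0 in both SDHA-KO libraries, while the highest cell held 461 and 908 in WT and 114 and 32 in SDHA-KO. The top 1% of cells carried 25.2% and 30.4% of all Mt1 UMIs in WT CD4 cells and 35.5% and 38.5% in SDHA-KO CD4 cells. In CD8 cells the median was 2 and 3 UMIs in WT and 1 and 0 in SDHA-KO, while the 90th percentile was 18.0 and 41.5 against 41.0 and 18.0. The highest CD8 cell held 256 and 763 UMIs in WT and 197 and 156 in SDHA-KO. These are UMIs before thinning, and the SDHA-KO cells were deeper. Mt1 and Mt2 were found together: in thinned cells Mt2 was detected in 18.6% and 27.0% of WT CD4 cells with Mt1 and in 7.63% and 12.6% of those without it, and in SDHA-KO CD8 cells in 33.0% and 34.1% against 6.90% and 3.28%. Each WT CD4 library held 5.93 and 5.24 Mt1 UMIs per Mt2 UMI, and the SDHA-KO CD4 libraries held fewer, at 3.23 and 2.00. The CD8 ratios, 4.50 and 3.54 in WT and 4.16 and 3.67 in SDHA-KO, overlapped.

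The lower metallothionein level of SDHA-KO CD4 cells was present in all 8 CD4 Subtypes with at least 20 cells in every stimulated library. In plain CPM, Mt1 ranged from 80.2 to 741 over 10 WT Subtypes and from 4.71 to 131 over 9 SDHA-KO Subtypes, and both SDHA-KO libraries were below both WT libraries in Tcm2, Tcm3, Tcm4, Tem1, Tem2, Tem3, Tem5 and Tem7. Tem1 stood at 680 and 741 plain CPM in WT against 49.8 and 11.4 in SDHA-KO. Tem7 stood at 555 and 741 in WT and, with 131 and 69.9, was the highest SDHA-KO Subtype. A Trdc UMI was found in 26.3% and 19.8% of SDHA-KO Tem7 cells and in 9.09% and 10% of WT ones. Sdha was not equally low in these Subtypes. In SDHA-KO it stood at 26.5 and 28.3 plain CPM in Tem1, against 83.4 and 84.2 in WT. In Tcm4 it stood at 56.8 and 79.05 against 91.9 and 93.4, and in Tem7 at 61.4 and 56.9 against 89.5 and 69.6. The part of either in the Mt1 level was not tested. Mt2 was lower in the same 8 of 8 Subtypes, with a range of 16.5 to 127 plain CPM in WT and 2.70 to 24.3 in SDHA-KO. Subtype clusters were drawn from these same cells and genes, so the split describes the difference and does not repeat it independently. The share of all genes with such a pattern was not computed within Subtypes. In the whole CD4 class it was 36.9%, so nothing is read from the number of Subtypes.

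CD8 Subtypes did not all follow. Mt1 was lower in both SDHA-KO libraries in Tcm2, Tcm3 and Tcm4, 3 of the 4 CD8 Subtypes that could be compared, with 200 and 318 plain CPM in WT against 113 and 54.3 in SDHA-KO for Tcm4. In Tem2 the genotypes overlapped, at 351 and 586 in WT and 564 and 416 in SDHA-KO. Tem2 made up 14.7% and 15.9% of stimulated SDHA-KO CD8 cells and held 51.3% and 65.4% of their Mt1 UMIs. The highest level of any Subtype was in WT Tem3, at 741 and 1704 plain CPM, which held 23.0% and 40.3% of WT CD8 Mt1 UMIs in 4.50% and 6.95% of cells, and WT replicate 2 was the higher library there too. Mt2 was lower in both SDHA-KO libraries in 1 of these 4 CD8 Subtypes and overlapped in 3. Mtf1 was higher in both SDHA-KO libraries in 5 of 8 CD4 Subtypes and 1 of 4 CD8 Subtypes and overlapped in the rest. Slc30a1 was higher in 2 and lower in 1 of the 8 CD4 Subtypes, with at most 39 UMIs per library in those 3, and higher in 1 of the 4 CD8 Subtypes. Without the share of all genes per Subtype, which was not computed, these counts are a description only.

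**Figure D2:**
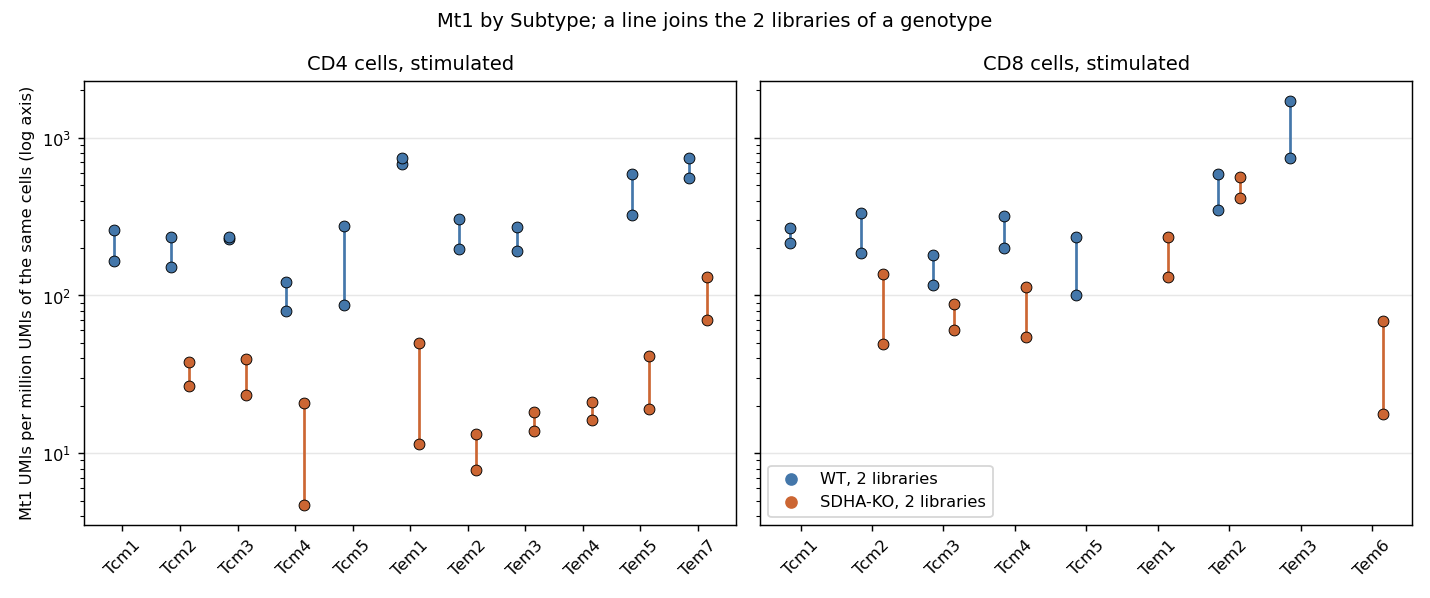
Mt1 in stimulated cells by Subtype, in plain CPM on a log axis, for CD4 cells (left) and CD8 cells (right), for Subtypes with at least 20 cells in both libraries of a genotype. Points are libraries (blue WT, orange SDHA-KO) and a line joins the 2 libraries of a genotype. The 8 CD4 Subtypes with both genotypes show SDHA-KO below WT, while CD8 Tem2 overlaps at 351 and 586 in WT and 564 and 416 in SDHA-KO.

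CD8-annotated cells with a Trdc UMI, the constant region transcript of the γδ T cell receptor, were common in SDHA-KO. They were 59.1% and 56.1% of stimulated SDHA-KO CD8 cells against 3.67% and 4.92% of WT CD8 cells, and 80.0% and 82.5% of SDHA-KO Tem2 cells. After thinning to 5000 UMIs the class means were 40.5% ± 0.403 and 2.81% ± 0.275, and in stimulated CD4 cells, which should lack Trdc, unthinned shares were 10.1% and 8.64% in SDHA-KO and 1.98% and 3.21% in WT. In the same stimulated CD8 libraries the γδ markers, 3 of 4 listed genes being in the table, summed to 8.75 and 12.3 plain CPM in WT and 140 and 148 in SDHA-KO. The 3 NK cell markers summed to 16.4 and 20.5 plain CPM against 32.3 and 42.9, and the 6 B cell markers to 53.7 and 49.97 against 345 and 64.1. Marker sums of γδ and NK cells were thus higher in both SDHA-KO libraries, those of B cells chiefly in replicate 1, and their part in the metallothionein levels of the class was not tested. Mt1 stood at 399 and 268 plain CPM in SDHA-KO CD8 cells with a Trdc UMI and at 159 and 105 in those without. WT CD8 cells without a Trdc UMI stood at 325 and 636, above the SDHA-KO cells without one in both libraries. Mt2 showed the same order, with 87.8 and 73.5 plain CPM with and 52.0 and 28.0 without a Trdc UMI in SDHA-KO, against 72.0 and 178 in WT cells without. The Mt1 log2 ratio of SDHA-KO to WT, −0.87 in all CD8 cells, was −1.99 in cells with Cd8a or Cd8b1 UMIs and neither Cd4 nor Trdc UMIs, and that of Mt2 was −1.80. In CD4 cells the like restriction left the Mt1 ratio at −3.48.

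Sdha itself differed along the same split. SDHA-KO CD8 cells with a Trdc UMI held 74.0 and 70.9 plain CPM of Sdha and those without 36.9 and 33.6, while WT cells without held 90.4 and 86.2. Inside SDHA-KO Tem1, Sdha was at 66.0 and 58.8 plain CPM with and 26.8 and 24.9 without a Trdc UMI, and Mt1 at 375 and 206 against 104 and 54.5. In Tem2 the split was smaller, with Sdha at 60.2 and 61.5 against 45.6 and 43.2 and Mt1 at 579 and 433 against 485 and 352, the latter from 15 and 11 cells. In Tem1 and Tem2, SDHA-KO cells with a Trdc UMI thus held more of both Sdha and Mt1. In Tcm4, where 81.5% and 72.6% of SDHA-KO cells held a Trdc UMI, Mt1 was lower in SDHA-KO than in WT. Sdha was not lower there, at 120.5 and 110.2 plain CPM against 101.9 and 94.44 in WT. In Tcm2, Tcm3 and Tem2 both SDHA-KO libraries held less Sdha than both WT libraries. The part of Sdha or of the γδ lineage in the Mt1 level was not tested. Between SDHA-KO CD8 cells with and without a Trdc UMI, Mtf1 overlapped, at 25.4 and 28.4 plain CPM with and 21.2 and 26.4 without. Slc30a1 was higher with a Trdc UMI, at 4.18 and 6.31 against 3.49 and 3.92. Its values rest on 49 and 55 against 25 and 23 UMIs.

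**Figure D3:**
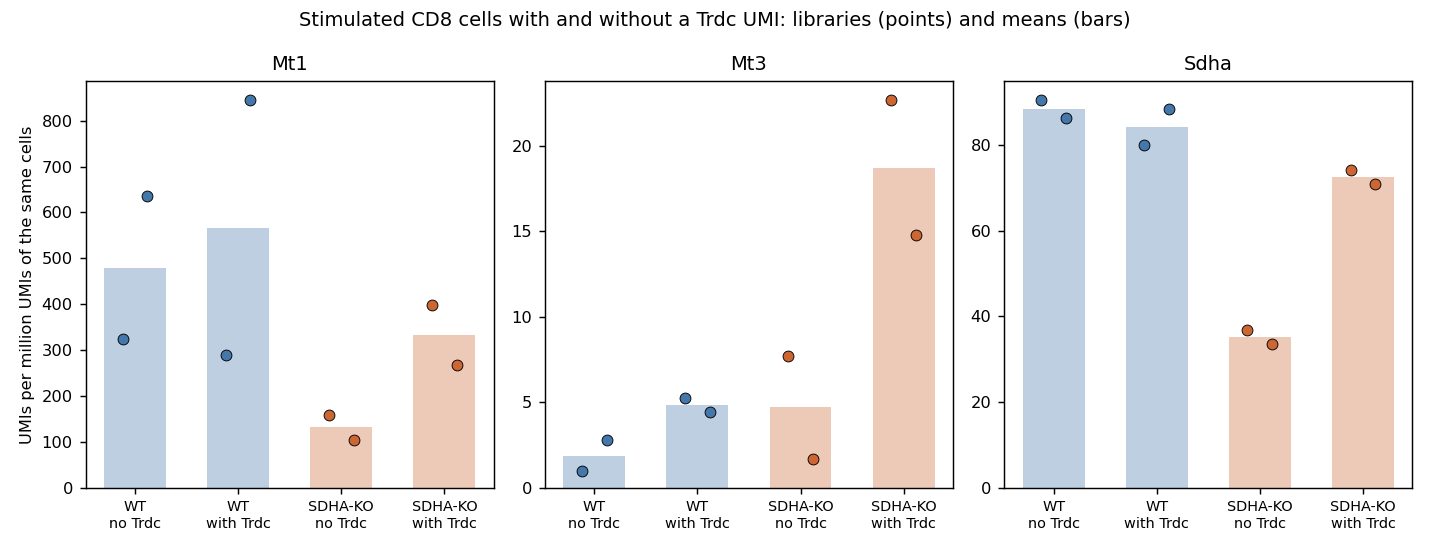
Mt1, Mt3 and Sdha in stimulated CD8 cells with and without a Trdc UMI, in plain CPM on linear axes from 0. Points are libraries (blue WT, orange SDHA-KO) and bars are means of 2 libraries. In SDHA-KO all 3 genes are higher with Trdc, with Mt1 at 399 and 268 against 159 and 105 and Sdha at 74.0 and 70.9 against 36.9 and 33.6.

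The metallothionein difference was also read on each side of a cut at 10% mitochondrial UMIs. Within a side the genotypes were not matched for mitochondrial content or depth. CD4 cells under 10% had a median of 59710 UMIs in each WT library against 26640 and 26960 in SDHA-KO. Among stimulated CD4 cells with under 10% mitochondrial UMIs, Mt1 stood at 321 and 455 plain CPM in WT and 40.7 and 16.1 in SDHA-KO. Among those at or over 10% it stood at 133 and 199 against 49.8 and 21.4, so both SDHA-KO libraries were lower on each side. In CD8 cells it stood at 423 and 830 against 331 and 221 on the low side, and at 172 and 293 against 138 and 52.9 on the high side. Within each range of mitochondrial content the CD8 genotypes did not overlap for Mt1. Mt2 did overlap in CD8 cells at or over 10%, at 45.65 and 83.18 plain CPM in WT and 67.66 and 15.38 in SDHA-KO. The share of all genes without overlap was not computed for these cells, so nothing is read from it. In plain CPM, WT cells with less mitochondrial RNA held more Mt1 in both classes. In cells under 10% the log2 ratio of SDHA-KO to WT was −3.96 in CD4 and −1.27 in CD8 cells.

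Mt3, the metallothionein best known from the brain, was the only other member of the family with enough counts to test, and it went the other way in CD8 cells. In stimulated CD8 cells Mt3 was at 1.01 and 2.49 CPM in WT and 15.1 and 8.60 in SDHA-KO, or 25 and 64 UMIs against 321 and 139. It rose in SDHA-KO by 2.75 on the log2 scale (SE 0.39, edgeR adjusted p = 0.00035), in a contrast where 26.8% of genes were called higher and 23.5% lower. Of those SDHA-KO UMIs, 266 and 129 lay in cells with a Trdc UMI, and Tem2 held 60.1% and 72.7% of them. Among cells with Cd8a or Cd8b1 UMIs and neither Cd4 nor Trdc UMIs the log2 fold change was 1.07 and the call was lost (edgeR adjusted p = 0.168). The SDHA-KO effect on Mt3 differed between CD8 and CD4 cells by 2.61 on the log2 scale (edgeR adjusted p = 0.00622), a test that called 22.4% of genes, and by 0.87 (adjusted p = 0.558) where CD4 cells had to hold Cd4 UMIs, CD8 cells Cd8a or Cd8b1 UMIs, and neither Trdc UMIs. In CD4 cells Mt3 was not called, at 1.35 and 1.10 CPM in WT and 1.73 and 1.03 in SDHA-KO (log2 fold change 0.16, SE 0.348, edgeR adjusted p = 0.746). Cells with a Mt3 UMI were 15.9% and 10.4% of SDHA-KO CD8 cells, and with Mt1 thinned to 5000 UMIs per cell it was detected in 76.5% and 65.9% of them and in 29.6% and 16.6% of the others. In WT CD8 cells the thinned Mt1 shares were 54.5% and 90.9% with and 51.0% and 59.8% without a Mt3 UMI. Mt3 itself was read before thinning, and SDHA-KO CD8 cells with it had median depths of 65322 and 70809 UMIs against 26422 and 27502 in the others.

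Around these genes stood 45 listed genes of zinc and copper transport, MTF-1 targets and glucocorticoid response, of which 42 were in the table. In the stimulated contrast 39 were tested in CD4 cells, where 9 rose and 13 fell in SDHA-KO at an edgeR adjusted p under 0.05. Their median log2 fold change was −0.095 against −0.001 over all genes, of which 22.7% were called higher and 20.5% lower. In CD8 cells 37 were tested, 9 rose and 8 fell, and the median was 0.034 against −0.01. Atp7b in both classes and Slc30a3 in CD4 cells reached the minimum of the low-count filter only in stimulated WT libraries, so their calls, which are among the 13 and the 8, had to be differences. At rest edgeR called 1 of them in CD4 cells, Ndrg1, and 0 in CD8 cells, where 5 had an unadjusted p under 0.05, and DESeq2 likewise called 1 and 0, with 5 and 2 at an unadjusted p under 0.05. The lists were chosen with results of these data known, and nothing particular to them is read from the counts.

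Zinc exporters fell or were not called. In CD4 cells 4 of 7 were called lower and 0 higher, where 20.5% of all genes were called lower and 22.7% higher. One of the 4 was Slc30a3, which loads synaptic vesicles, at 20 and 18 UMIs in WT and 0 and 5 in SDHA-KO libraries. It is given as a description, and without any 1 of the 4 stimulated libraries it no longer passed the filter. The others were Slc30a6, Slc30a7 and Slc30a9, which act on internal compartments. Slc30a7, the Golgi exporter, fell from 36.6 ± 3.22 to 23.1 ± 0.772 CPM (SD, n = 2), by 0.67 on the log2 scale (SE 0.106, edgeR adjusted p = 0.000517). In CD8 cells, where 23.5% of all genes were called lower, 2 of 5 fell. They were Slc30a9, by 0.75 (SE 0.0972, edgeR adjusted p = 8.81e-05), and Slc30a7, by 0.62 (SE 0.0995).

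Zinc importers moved both ways. Slc39a10, a plasma membrane importer, fell from 45.1 ± 0.756 to 25.3 ± 2.67 CPM in CD4 cells (log2 fold change −0.84, SE 0.101, edgeR adjusted p = 8.04e-05) and from 53.5 ± 2.92 to 37.9 ± 0.947 CPM in CD8 cells (−0.50, SE 0.0969, adjusted p = 0.00135). Slc39a11 rose in both classes, by 0.60 in CD4 and 0.45 in CD8 cells. Slc39a3 rose in CD4 cells by 0.68, and Slc39a7, which releases zinc from the endoplasmic reticulum, rose in CD8 cells by 0.62, a call lost in cells with Cd8a or Cd8b1 UMIs and neither Cd4 nor Trdc UMIs (0.15, edgeR adjusted p = 0.292). With Slc39a1 lower and Slc39a6 higher in CD4 cells, 3 importers rose and 2 fell of 11 tested there, and 2 rose and 1 fell of 11 in CD8 cells. The calls of Slc39a1 (without WT replicate 2 or SDHA-KO replicate 2) and Slc39a6 (without either WT replicate or SDHA-KO replicate 1) did not hold for every set of stimulated libraries. During WT stimulation itself 6 of 11 importers rose in CD4 cells, where 36.2% of all genes did, and 7 of 11 in CD8 cells, where 35.5% did, with 1 lower in each, among them Slc39a10 (21.9 to 45.1 CPM in CD4 cells) and Slc39a14 (5.42 to 14.8).

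Other genes tied to MTF-1 did not move as a block. Ndrg1, which is also induced by hypoxia, fell most: 59.0 and 58.3 CPM in stimulated WT CD4 cells became 13.0 and 10.3 in SDHA-KO (log2 fold change −2.34, SE 0.11, edgeR adjusted p = 1.16e-07). In CD8 cells Ndrg1 went from 37.8 and 43.3 to 7.90 and 6.004 CPM (−2.53, SE 0.159, edgeR adjusted p = 1.18e-06). At rest Ndrg1 was higher in SDHA-KO CD4 cells, 12.1 against 6.04 CPM (log2 fold change 1.00, SE 0.177, edgeR adjusted p = 0.0239). Selenow, a selenoprotein gene, rose by 1.08 (SE 0.0866) in CD4 and 0.67 (SE 0.0908) in CD8 cells, Csrp1 rose by 0.56 and 0.37, and Gclc was not called.

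Copper genes moved both ways. Atp7b, a copper exporter, was at 4.06 and 4.32 CPM in stimulated WT CD4 cells and at 0.260 and 0.135 in SDHA-KO. In CD8 cells it was at 3.32 and 3.50 against 0.376 and 0.124 CPM. At rest Atp7b had 0 UMIs in WT. Since it passed the low-count filter only through stimulated WT libraries, these levels are given with no test. Atp7a fell in both classes and the copper importer Slc31a1 fell in CD4 cells. The cytosolic superoxide dismutase Sod1 rose by 0.84 in CD4 and 0.44 in CD8 cells, and the copper carriers Atox1 and Cox17 and the trafficking factor Commd1 rose by 0.39 to 0.55. In cells under 10% mitochondrial UMIs the calls of Atox1, Cox17 and Atp7a were lost in CD4 cells, and those of Csrp1, Atox1, Cox17, Sod1, Commd1 and Atp7a in CD8 cells, where Cox17 turned to −0.02. Leaving out a stimulated library also ended the call of Cox17 in both classes (WT replicate 1 or SDHA-KO replicate 2), of Atp7a in CD4 cells (WT replicate 2) and, in CD8 cells, of Sod1 (WT replicate 1) and Csrp1 (SDHA-KO replicate 2).

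Glucocorticoid-induced genes, another known route to Mt1 and Mt2, fell or were not called. Tsc22d3, which encodes GILZ, fell from 10.3 ± 1.88 to 4.88 ± 0.971 CPM in CD4 cells (log2 fold change −1.10, SE 0.167, edgeR adjusted p = 0.000387) and from 12.1 ± 1.57 to 4.07 ± 0.108 CPM in CD8 cells (−1.57, SE 0.168, adjusted p = 2.37e-05). Klf9 fell in both classes, by 0.94 and 0.38, and the CD8 call of Klf9 (adjusted p = 0.0412) was lost under most alternatives. Per1 fell in CD4 cells by 0.82. Fkbp5, Dusp1, Sgk1 and Zbtb16 were not called in either class.

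**Figure D4:**
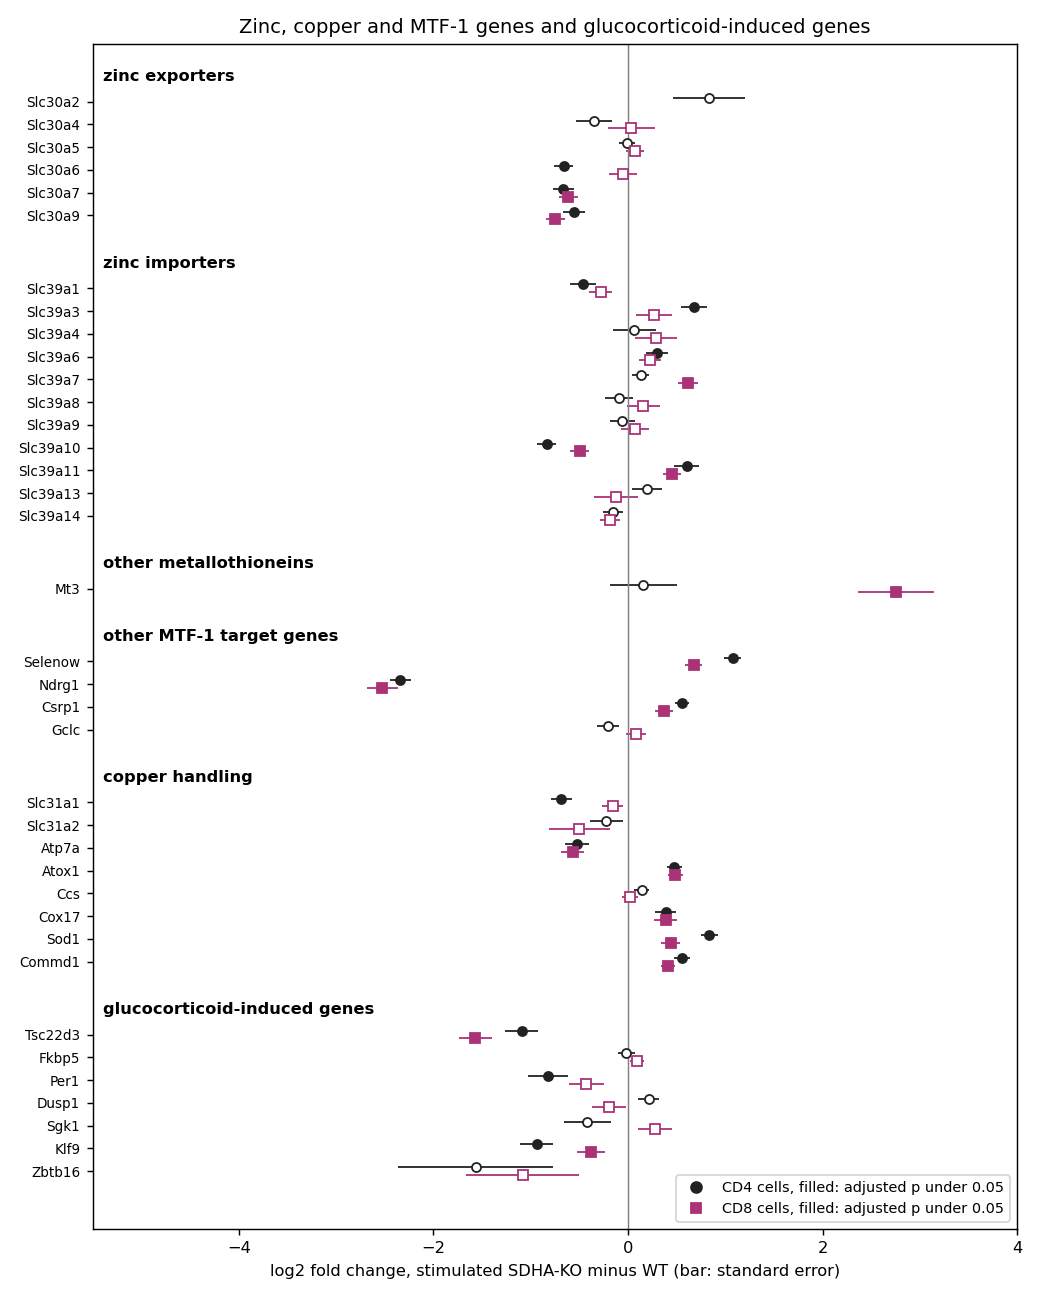
Log2 fold change of stimulated SDHA-KO minus WT with its standard error for the listed zinc, copper, MTF-1 and glucocorticoid genes that were tested, leaving out those that passed the low-count filter through stimulated WT libraries alone (Atp7b and, in CD4 cells, Slc30a3), for CD4 cells (black circles) and CD8 cells (purple squares), filled where the adjusted p was under 0.05. Ndrg1 lies farthest to the left in both classes (−2.34 in CD4 cells), and Mt3 lies to the right in CD8 cells at 2.75.

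Over the 16 sums of library and class, the gene most like Mt1 was Mt2, with Pearson r = 0.996 of log2(CPM + 1) among the 5725 genes whose mean reached 20 CPM. P4hb, the endoplasmic reticulum disulfide isomerase, followed at 0.995, Eif2s2 at 0.990, and Stard4 and Hist1h2ae at 0.984. These values describe 8 libraries read in 2 classes, and most of each lies in the step from rest to stimulation. P4hb, for instance, spanned 24.1 to 29.3 CPM at rest and 63.8 to 194 after stimulation. Within the 8 stimulated sums P4hb kept r = 0.981 and Mt2 0.976, while Mtf1 stood at −0.56 and Slc30a1 at 0.29, against 0.765 and −0.76 over all 16.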

How the data were processed

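Per the labels, the authors purified splenic pan T cells, built 10x 3′ HT v3.1 libraries and processed the reads with bcl2fastq and Cell Ranger on mm10 (versions not given in the sources used here). The deposited matrix holds raw UMI counts, without normalization, for cells that the authors had filtered by feature number and Cd3, and the deposited cell table holds the library, the UMI count, the mitochondrial percent and the authors' class and Subtype. UMI totals of all 12846 cells matched the table. Counts were summed per library and class and fitted with edgeR 4.0.16 (R 4.3.3, quasi-likelihood, filterByExpr, TMM, 4 groups in 1 model per class with 4 residual degrees of freedom, Benjamini-Hochberg over 14264 genes in CD4 and 13095 in CD8 cells), with DESeq2 1.42.0 as an alternative. All 4 genes passed the filter. Mt2, and Mt1 in CD8 cells, reached its minimum in stimulated libraries only. The fit was tested on simulated data, where 64.2% to 86.7% of genes changed 2-fold were recovered. The simulation gave every gene the same spread and left all other genes equal between groups, so this recovery need not hold for the real data. Thinning drew 5000 UMIs per cell. Intervals and floors cover counting error only. Doublets were not called.

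The members and lists were chosen with earlier results of these data known. Named from the lists were up to 2 rises and 2 falls per list and class by size, among those called, and the 5 genes most like Mt1. Others named were chosen after their values were seen. Replicates differed by more than sampling noise (chi-square per degree of freedom 1.54 to 13.6). Same-numbered replicates of the compared groups did not deviate together (r −0.073 to 0.039). Slc30a8, Slc30a10 and Slc39a12 were not analysed here. Promoter windows are RefSeq's.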

Additional observations from a re-analysis of the deposited data

Results flagged for a closer look

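The effect of SDHA loss in stimulated cells was compared between the classes for 39 of the listed zinc, copper, MTF-1 and glucocorticoid genes, a test added after the data were seen. It took the SDHA-KO effect in CD8 minus that in CD4 cells, in an edgeR fit of both classes with the library as a term and 2 residual degrees of freedom. At an adjusted p under 0.05 it called 7 of the 39, against 22.4% of 14617 genes. Mt3 differed most, by 2.606 on the log2 scale (adjusted p = 0.00622), with a call in CD8 and none in CD4 cells. Slc30a6 differed by 0.601, Slc31a1 by 0.513 and Klf9 by 0.564, each with a less negative fold change in CD8 cells. Slc39a7 differed by 0.473, a larger rise in CD8 cells. Selenow differed by −0.416 and Sod1 by −0.407, a smaller rise in CD8 cells. The CD8 class of SDHA-KO held 59.1% and 56.1% of cells with a Trdc UMI. In cells with Cd4 or with Cd8a or Cd8b1 UMIs and without Trdc UMIs, the difference was 0.869 for Mt3 (adjusted p = 0.558), 0.372 for Slc30a6 (0.163), 0.01 for Slc39a7 (0.972), −0.217 for Selenow (0.177), 0.425 for Slc31a1 (0.0562), −0.208 for Sod1 (0.227) and 0.628 for Klf9 (0.0497), so the calls of 6 were lost there and that of Klf9 passed narrowly. The Klf9 call in all cells was lost without WT stimulated replicate 1 (adjusted p = 0.0682), without WT stimulated replicate 2 (0.0548) and without SDHA-KO stimulated replicate 1 (0.053), and that of Sod1 without WT stimulated replicate 2 (−0.3, adjusted p = 0.0725).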

How the results depend on the processing

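Of 335 values recomputed under other settings, 328 kept their direction and their side of the threshold, or moved by less than the replicate spread, and 7 did not. The rise of Mtf1 with stimulation in WT CD4 cells was 0.457 in DESeq2 (adjusted p = 0.0662) and ranged from 0.422 to 0.539 (adjusted p 0.00509 to 0.0932) when each library was left out in turn, and in WT CD8 cells it ranged from 0.515 to 0.75 (adjusted p 0.00375 to 0.0845). Slc30a1 in WT CD8 cells, −0.439 on the log2 scale, turned to 0.043 (adjusted p = 0.897) without composition normalization, a setting that moved the median of all genes in that contrast from 0.0883 to 0.57. The Mt1 ratio in stimulated CD8 cells, −0.873, was −1.991 in cells with Cd8a or Cd8b1 UMIs and neither Cd4 nor Trdc UMIs, of which SDHA-KO libraries held 169 and 147. Of 666 further values for genes and fits added after the data were seen, 617 stayed, 48 lost their call and 1 reversed, Cox17 in CD8 cells with under 10% mitochondrial UMIs (−0.024, adjusted p = 0.884). The cause of these changes was not tested. With a replicate block, although same-numbered replicates share only a number, Mtf1 in WT CD4 cells was 0.461 (adjusted p = 0.0171), and listed genes called were 8 higher and 13 lower in CD4 and 9 and 8 in CD8 cells, against 9 and 13 and 9 and 8 without it. Differences of Mt1 and Mt2 at rest had no alternatives where both groups held 3 UMIs or fewer. Slc30a1 rested on 16 to 102 UMIs per library and class.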
